A study of Arabidopsis thaliana with 12 samples.

Results

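The genes described here encode 2 families of enzymes that attach sugars to small molecules or remove them. They were taken as all probe sets whose single annotated symbol was UGT or BGLU followed by a digit. The rule found 67 of the 22746 probe sets on the array that were not controls, 47 for UGT genes and 20 for BGLU genes, each for a different gene. A further 4 probe sets carried several symbols and were left out. UGT enzymes transfer a sugar from a nucleotide-activated donor to hormones, flavonoids, phenylpropanoids and other small acceptors, which usually makes the product more soluble and, for a hormone, inactive. BGLU enzymes are beta-glucosidases of glycoside hydrolase family 1 that split glucosides and release the free compound, so that a stored glucoside can be drawn on later. In flowers, products of these pathways include flavonol glycosides, monolignol glucosides, glucosinolates and hormone conjugates.

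The arrays measured RNA from inflorescence tips of Arabidopsis thaliana plants that were homozygous for ap1-1 and cal-1 and carried 35S:AGGR, AGAMOUS fused to the rat glucocorticoid receptor. AGAMOUS is the transcription factor that specifies stamens and carpels. In this background the tips form proliferating meristems in place of flowers, and the steroid dexamethasone lets the fusion protein enter the nucleus. Tips were given dexamethasone at 10 µM in 0.1% ethanol with 0.015% Silwet L-77, or a mock solution with the same ethanol and detergent, and were collected 1, 3 or 7 days later. The 6 groups of treatment and day held 2 independent samples each, 12 arrays in all. Every group carried the fusion under the broadly active 35S promoter, and no steroid-treated group without it was analysed here, so a response to the steroid itself and a response to the fusion protein cannot be told apart. The tissue was whole tips, in which fewer cells of a type and less RNA per cell cannot be told apart. The question was which members followed AGAMOUS activation, and which differed between the days whatever the treatment.

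The days differed as arrays before any gene was considered. Median deposited intensities ran from 16.1 to 20.8 for day 1 arrays, from 20.1 to 32.2 for day 3 arrays and from 62.6 to 95.3 for day 7 arrays. For the GAPDH control probe sets the 3′ signal divided by the 5′ signal, which grows as RNA is shortened, was 4.16 to 11.2, 6.60 to 15.8 and 1.09 to 1.41 in that order. The median replicate SD was 0.33, 0.32 and 0.13 on the log2 scale, so the same change was measured more closely on day 7. By scan date the arrays fell into 5 scans. The mock arrays of day 7 made up scan 1 and the steroid arrays of day 7 scan 2, so on day 7 scan and treatment cannot be told apart, and no scan held both day 7 and another day. Tissue markers could be read only in part, since 3 of 16 inflorescence genes were named on the array, 5 of 23 stamen genes, 3 of 12 carpel genes and 2 of 18 green leaf genes. The inflorescence gene AGL24 was at 102 or above on all 12 arrays.

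Signals are given as the deposited intensity with each array scaled to a median of 24.8. They compare 1 probe set between arrays, never 1 gene with another. Testing was limited to probe sets that lay above the 40th percentile of an array on 2 or more of the 12, which kept 16515. Of the 67 members 32 were tested (20 UGT and 12 BGLU), or 47.8%, against 72.6% of all probe sets. The share was 42.6% for UGT and 60% for BGLU genes. Of the 32, 18 exceeded that level on all 12 arrays and 12 on only 2 to 6, and none passed through a single group. Some passed only through 1 treatment or the earlier days, such as UGT84A4 (steroid arrays) and BGLU41 and BGLU47 (days 1 and 3). Of the 35 untested members 27 exceeded that level on no array and 8 on 1, and the highest value of any of them was 23.1, for BGLU43. The untested members were BGLU19, BGLU24, BGLU27, BGLU29, BGLU31, BGLU32, BGLU36 and BGLU43 among the beta-glucosidases. Among the glycosyltransferases they were UGT71B5, UGT71B6, UGT71B8, UGT71C1, UGT71C2, UGT72B3, UGT72E1, UGT72E3, UGT73B1, UGT73B4, UGT73B5, UGT73C1, UGT73C2, UGT73C7, UGT73D1, UGT74F1, UGT76B1, UGT76E1, UGT76E11, UGT76E12, UGT76E2, UGT84B1, UGT84B2, UGT85A2, UGT85A4, UGT85A5 and UGT87A2. They include UGT71B6, known to glucosylate abscisic acid, UGT74F1, which acts on salicylic acid, and UGT84B1, which acts on indole-3-acetic acid.

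**Figure D1:**
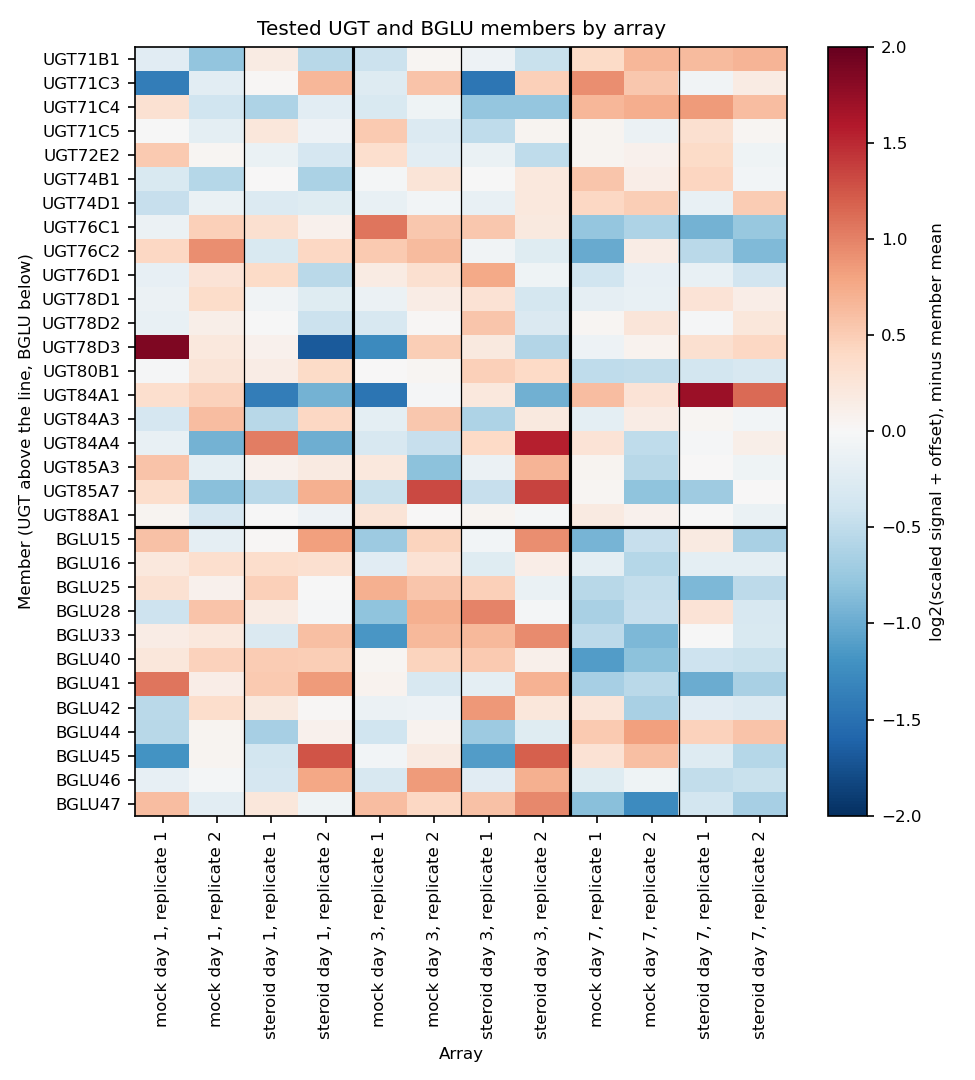
Scaled signal of the 32 tested members (rows) on the 12 arrays (columns, by day and treatment), shown as the log2 difference from each member's mean over the arrays. BGLU40, BGLU25 and UGT76C1 are lower and BGLU44 is higher on all 4 arrays of day 7 than on the other 8.

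On day 7, BGLU40 was the 1 member of 32 that passed the test for a steroid effect, and it was higher in steroid tips. BGLU40 (AT1G26560) encodes a family 1 beta-glucosidase. Its scaled signal on day 7 was 33.0 and 41.8 in the mock samples and 56.6 and 55.4 in the steroid samples. Both steroid arrays exceeded both mock arrays, and the means were 37.4 ± 6.17 and 56.0 ± 0.825 (SD, n = 2). The difference was 0.54 on the log2 scale (SE 0.12), 1.45-fold, with an adjusted p of 0.0320 by limma over all tested probe sets. The same gene read 91.2 and 108 in mock and 111 and 110 in steroid samples on day 1. On day 3 it read 79.0 and 107 in mock and 112 and 83.4 in steroid samples, so the groups overlapped there. Every day 7 value lay below every value of the earlier days. Over all tested probe sets 1.78% were called on day 7, 1.04% higher and 0.745% lower, so 1 of 32 is near the background. The BGLU40 call was lost without replicate 1 of the mock group (log2 difference 0.39, adjusted p 0.291 by limma), and also without either steroid replicate (adjusted p 0.223 and 0.0912) and with equal array weights (adjusted p 1.00).

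The next members by unadjusted p on day 7 were of the phenylpropanoid pathway, and neither passed the threshold. UGT84A1 (AT4G15480) forms glucose esters of hydroxycinnamic acids. On day 7 it was at 20.4 and 15.1 in mock and 48.3 and 31.1 in steroid samples, and the groups did not overlap. The difference was 0.97 on the log2 scale (SE 0.28), 1.96-fold, with an adjusted p of 0.0926 by limma. BGLU45 (AT1G61810) hydrolyses monolignol glucosides, the transport or storage form of lignin precursors. It was at 38.3 and 49.1 in mock and 25.0 and 19.3 in steroid samples, lower in both steroid arrays. The difference was -0.86 (SE 0.27), 1.81-fold, with an adjusted p of 0.137 by limma. A fit of the 4 day 7 arrays alone, where 1.62% of probe sets were called, called both, at adjusted p 0.0447 for UGT84A1 and 0.0337 for BGLU45, and did not call BGLU40 (adjusted p 0.101). In the fit of all 12 arrays 7 of 32 members had an unadjusted p under 0.05 on day 7, against 13.8% of all tested probe sets.

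**Figure D2:**
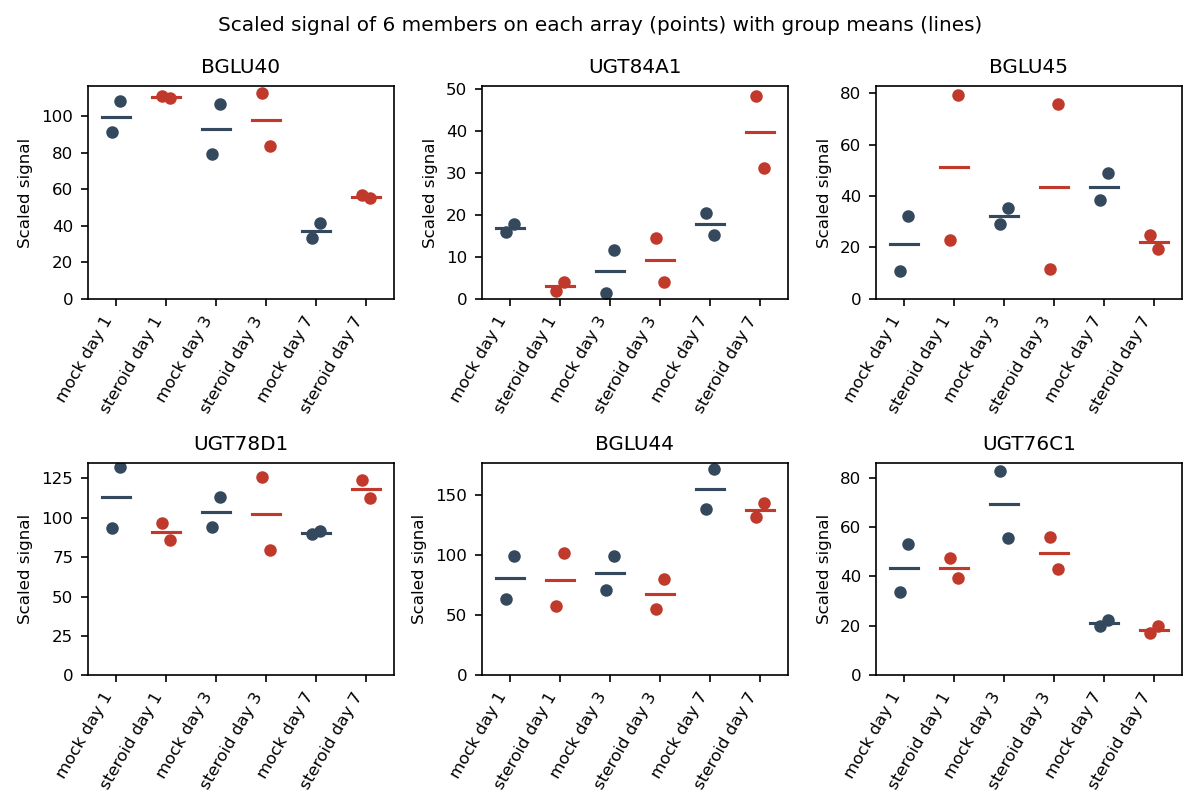
Scaled signal on each array (points, linear axis from 0, a separate scale in each panel) of BGLU40, UGT84A1, BGLU45, UGT78D1, BGLU44 and UGT76C1 by day and treatment, with group means as lines, mock dark and steroid red. UGT84A1 reads 1.87 and 4.07 in steroid tips on day 1 and 48.3 and 31.1 on day 7, and the BGLU45 steroid replicates of day 1 lie at 22.9 and 79.4.

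The related enzymes of monolignol and hydroxycinnamate metabolism gave no call for the steroid on any day. BGLU46 (AT1G61820), which also hydrolyses monolignol glucosides and lies next to BGLU45 in the genome, was at 35.1 and 39.5 in mock and 28.8 and 30.0 in steroid samples on day 7 (log2 difference -0.30, SE 0.18). The related BGLU47 went the other way in value, at 5.67 and 3.1 in mock and 9.55 and 7.00 in steroid samples (0.54, SE 0.23, limma adjusted p 0.285). These 3 beta-glucosidases thus held groups that did not overlap on day 7, lower for BGLU45 and BGLU46 and higher for BGLU47. Of all tested probe sets 22.2% were apart and lower with the steroid on day 7 and 22.5% apart and higher. BGLU47 exceeded the filter level on no day 7 array. UGT72E2, which glucosylates coniferyl and sinapyl alcohol, was at 15.7 and 16.2 in mock and 20.8 and 13.8 in steroid samples, which overlapped. UGT84A3 and UGT84A4, neighbours of UGT84A1 with the same kind of activity, differed by 0.01 (SE 0.19) and 0.16 (SE 0.32) on the log2 scale. Cross-hybridisation between such near copies was not tested.

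Among the flavonoid enzymes, UGT78D1, the flavonol 3-O-rhamnosyltransferase, had the lowest p. It was at 89.5 and 91.5 in mock and 124 and 113 in steroid samples on day 7, without overlap (0.37, SE 0.12, 1.29-fold, adjusted p 0.139 by limma). On day 1 it read 93.3 and 132 in mock and 96.4 and 85.8 in steroid samples. On day 3 it read 93.9 and 113 in mock and 126 and 79.2 in steroid samples, so the groups of both earlier days overlapped. UGT78D2, the flavonoid 3-O-glucosyltransferase, was at 73.8 and 86.1 in mock and 71.2 and 84.9 in steroid samples on day 7. Those groups overlapped almost fully, and its difference was -0.03 (SE 0.14). On the earlier days UGT78D2 read 64.5, 78.5, 57.1 and 73.4 in mock samples and 72.0, 52.4, 108 and 58.1 in steroid samples of days 1 and 3. The arabinosyltransferase UGT78D3 was at 10.5 and 12.4 in mock and 15.7 and 16.9 in steroid samples on day 7 (0.39, SE 0.30).

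Of the enzymes of hormone and glucosinolate conjugates none was called for the steroid on day 7. The cytokinin N-glucosyltransferases UGT76C1 and UGT76C2 differed by -0.16 (SE 0.15) and -0.28 (SE 0.25) on the log2 scale. UGT71C5, which glucosylates abscisic acid, differed by 0.20 (SE 0.17), and BGLU33, which releases abscisic acid from its glucose ester, by 0.55 (SE 0.25, limma adjusted p 0.335). BGLU33 read 9.41 and 6.27 in mock and 15.2 and 11.6 in steroid samples, dim but not overlapping. UGT74D1, an auxin glucosyltransferase, differed by -0.28 (SE 0.17). UGT74B1, the S-glucosyltransferase of glucosinolate synthesis, differed by -0.17 (SE 0.17), and BGLU28, a glucosinolate-cleaving enzyme, by 0.53 (SE 0.27). The largest lower value among the UGT genes was that of UGT71C3, at 21.1 and 15.1 in mock and 8.36 and 10.6 in steroid samples (-0.69, SE 0.31, limma adjusted p 0.320). UGT71C3 exceeded the filter level on only 3 arrays, both mock arrays of day 7 among them, so the filter favoured a lower steroid value for it. Across members the day 7 groups were apart and higher with the steroid for 8 of 32 and apart and lower for 4 of 32, against 22.5% and 22.2% of all tested probe sets. The median day 7 difference was 0.03 for UGT, 0.07 for BGLU and 0.00 for all tested probe sets on the log2 scale, and with a stricter filter, of 4 or more arrays above the 60th percentile, both family medians were below 0.

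**Figure D3:**
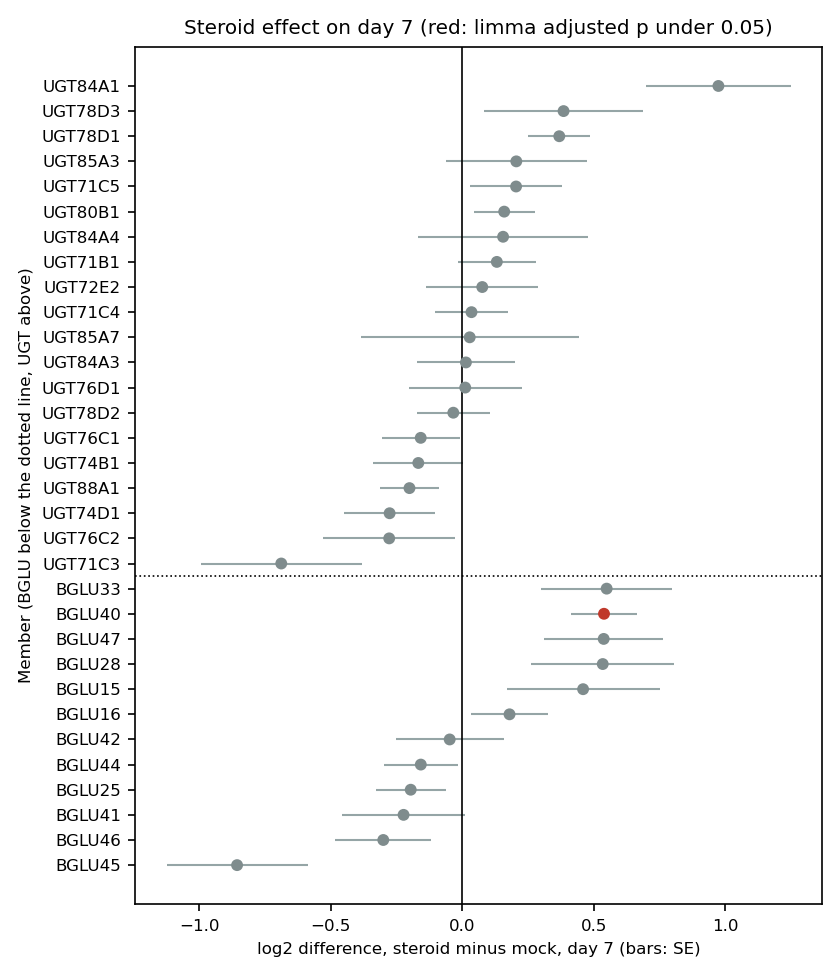
Steroid minus mock difference on day 7 (horizontal axis, log2) of each tested member, with bars of 1 standard error, BGLU members below the dotted line and UGT members above it. BGLU40 at 0.54, in red, is the only member called by limma, while UGT84A1 at 0.97 and BGLU45 at -0.86 lie farther from 0 with wider bars.

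On days 1 and 3 no member was called for the steroid by limma. On day 1 the background was 0.0% of tested probe sets. An unadjusted p under 0.05 was found for 2 of 32 members, against 4.23% of all tested probe sets. One was UGT78D3, at 53.8 and 14.2 in mock and 12.7 and 0.656 in steroid samples (-1.83, SE 0.76, p 0.0269 by limma). The other was UGT84A1, at 16.0 and 17.9 in mock and 1.87 and 4.07 in steroid samples (-1.56, SE 0.69, p 0.0365 by limma). Both were lower in each steroid array than in either mock array, with adjusted p of 1.00 by limma. With replicate 1 of the mock group left out, the only day 1 array of scan 3, the UGT78D3 difference was -1.01, and it was -0.95 without replicate 2 of the steroid group. BGLU45 had the largest beta-glucosidase value, 10.9 and 32.1 in mock and 22.9 and 79.4 in steroid samples, which overlapped (1.02, SE 0.67). That difference was 0.21 without replicate 2 of the steroid group and 1.83 without its replicate 1. The day 1 groups were apart for 2 members higher and 4 lower, against 13.8% and 17.5% of all tested probe sets.

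On day 3 the background was 0.0182%, and no member had an unadjusted p under 0.05 by limma. The largest values were those of UGT84A4, at 6.15 and 5.22 in mock and 12.9 and 34.4 in steroid samples (1.37, SE 0.77), and of BGLU33, at 4.42 and 26.6 in mock and 26.6 and 33.7 in steroid samples (1.06, SE 0.60). The UGT84A4 groups did not overlap, whereas those of BGLU33 met at 1 value. UGT84A4 exceeded the filter level on only 2 arrays, both of steroid tips, so the filter favoured a higher steroid value for it. The UGT84A4 difference was 0.79 without replicate 2 of steroid day 3, and that of BGLU33 was 0.15 and 1.97 without replicate 1 or 2 of mock day 3. UGT80B1, a sterol glucosyltransferase, was at 53.3 and 54.8 in mock and 75.2 and 71.3 in steroid samples, apart but not called (0.41, SE 0.28). Groups were apart for 3 members higher and 3 lower, against 10.5% and 20.0%. With scan as a block on days 1 and 3 no member was called either. Averaged over the 3 days no member was called (background 0.0787%) and none had an unadjusted p under 0.05, with differences from -0.54 (UGT76C2) to 0.70 (UGT84A4).

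A difference of the steroid effect between days was called for no member by limma. The background of these tests was 0.0% for day 3 against day 1, 0.0182% for day 7 against day 1 and 0.0% for day 7 against day 3. Unadjusted p under 0.05 was found for 0, 4 and 0 of 32 members, against 2.69%, 5.99% and 4.35% of all tested probe sets. The largest was that of UGT84A1, whose effect went from lower on day 1 to higher on day 7 by 2.53 on the log2 scale (SE 0.74, adjusted p 0.596 by limma).

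More members were called between days than between treatments. Between days 1 and 3 no member was called in mock tips (background 0.0%) or in steroid tips (background 0.0%), and none had an unadjusted p under 0.05 by limma. Between days 1 and 7, 9 of 32 members were called in mock tips, 3 higher and 6 lower on day 7. That is 28.1%, against a background of 30.9% (16.0% higher and 14.9% lower). In steroid tips 9 of 32 were called, 4 higher and 5 lower, against a background of 30.4% (17.0% higher and 13.4% lower). The mock and steroid comparisons share no array, but both came from 1 fit with the same variance per probe set, day weights and filter. Their calls were therefore not independent. The 8 members called in both were BGLU25, BGLU40, BGLU41, UGT76C1 and UGT80B1, lower on day 7, and BGLU44, UGT71B1 and UGT71C4, higher. No share of all tested probe sets called in both was taken, so this count has no background beside it. The mock and steroid changes had the same sign for 25 of 32 members, against 81.9% of all tested probe sets. They correlated at 0.438 over the members and at 0.813 over all tested probe sets. The shares called in each treatment are close to the background. The brighter arrays, less shortened RNA and separate scans of day 7 moved with every one of these differences, and their part in the result was not tested. The mock count fell to 4 and 3 without replicate 1 or 2 of mock day 1 and to 5 without replicate 1 of mock day 7, and the steroid count to 2 and 4 without replicate 1 or 2 of steroid day 1.

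More beta-glucosidases fell than rose between days 1 and 7. In mock tips 4 of 12 tested BGLU members were called lower and 1 higher, against 14.9% and 16.0% of all tested probe sets. The family median was -0.68 on the log2 scale against -0.10 for all tested probe sets. In steroid tips 3 were called lower and 1 higher, against 13.4% and 17.0%, with a median of -0.62 against -0.08. Of the members called lower, BGLU41 and BGLU47 exceeded the filter level on no day 7 array, so the filter favoured a fall for them. The mock median was -0.38 with the stricter filter, and the steroid median was -0.35 without replicate 2 of steroid day 1, both still below 0. Values were below 0 in both treatments for 10 of the 12, against 45.1% of all tested probe sets. BGLU40 fell by 1.32 in mock tips (SE 0.24, 2.50-fold, adjusted p 0.000536 by limma) and by 0.93 in steroid tips (SE 0.24, adjusted p 0.00684). BGLU25 was at 112 and 95.6 in mock and 127 and 89.6 in steroid samples on day 1. It was at 150 and 134 in mock and 127 and 81.6 in steroid samples on day 3. On day 7 it was at 59.9 and 63.8 in mock and 46.4 and 61.4 in steroid samples, below all 8 earlier arrays. Its changes from day 1 to day 7 were -0.71 (adjusted p 0.0423 by limma) and -0.94 (adjusted p 0.00951). Equal array weights, a fit of only those days or no filter each removed its mock call (limma adjusted p 0.0556, 0.0537 and 0.0535). The mock call was lost without either mock replicate of day 1 or of day 7 or without replicate 1 of steroid day 1 (limma adjusted p from 0.0509 to 0.255), and the steroid call without replicate 1 of steroid day 1 (-0.70, adjusted p 0.211). The BGLU40 call in steroid tips was lost without either steroid replicate of day 1 (adjusted p 0.0886 and 0.0754), and its mock call was kept under all 22 alternatives.

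BGLU41 went from 31.4 and 14.3 to 6.40 and 7.44 in mock tips and from 20.3 and 26.5 to 4.24 and 6.48 in steroid tips. Neither pair of groups overlapped, and the changes were -1.20 (SE 0.44, adjusted p 0.0486 by limma) and -1.52 (SE 0.44, adjusted p 0.0158). BGLU47 fell in mock tips, from 23.3 and 11.1 to 5.67 and 3.1 (-1.26, SE 0.43, adjusted p 0.0351 by limma). In steroid tips it went from 16.5 and 12.6 to 9.55 and 7.00 (-0.58, SE 0.43, adjusted p 0.318). BGLU41 exceeded the filter level on 4 arrays and BGLU47 on 5, none of them of day 7, so the filter favoured a fall for both. Both mock calls were also lost with only those days fitted, with quantile normalization and without a filter. BGLU44 was the 1 beta-glucosidase called higher on day 7. It was at 63.3 and 99.4 in mock and 58.1 and 102 in steroid samples on day 1. On day 3 it was at 70.9 and 99.6 in mock and 55.8 and 80.1 in steroid samples. On day 7 it was at 139 and 172 in mock and 132 and 144 in steroid samples, above all 8 earlier arrays. The change was 0.92 in mock tips (SE 0.27, adjusted p 0.0150 by limma) and 0.80 in steroid tips (SE 0.27, adjusted p 0.0298). Equal array weights and quantile normalization each removed the steroid call (limma adjusted p 0.0653 and 0.0543). Without replicate 1 of mock day 1 the mock calls of BGLU41 (-0.73, limma adjusted p 0.428), BGLU44 (0.61, 0.247) and BGLU47 (-0.84, 0.339) were lost, and without replicate 1 of steroid day 1 the steroid calls of BGLU41 (adjusted p 0.0987) and BGLU44 (0.42, adjusted p 0.462). BGLU41 in mock tips also lost its call without any 1 of 9 other arrays and in steroid tips without replicate 2 of steroid day 1, BGLU47 in mock tips without replicate 2 of mock day 7, and BGLU44 in steroid tips without replicate 2 of steroid day 7.

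The glycosyltransferases were divided. In mock tips 2 of 20 rose and 2 fell, against 16.0% and 14.9% of all tested probe sets, and in steroid tips 3 rose and 2 fell, against 17.0% and 13.4%. The family medians were -0.05 and 0.08 on the log2 scale, against -0.10 and -0.08 for all tested probe sets. Neither kept its sign, since the mock median was 0.15 with the stricter filter and the steroid median -0.18 without a filter. UGT84A1 rose in steroid tips, from 1.87 and 4.07 on day 1 and 14.4 and 3.95 on day 3 to 48.3 and 31.1 on day 7. The change was 2.58 (SE 0.52, 5.97-fold, adjusted p 0.00139 by limma), the largest of any member between days. Mock tips read 16.0 and 17.9 (day 1), 1.51 and 11.6 (day 3), then 20.4 and 15.1 (day 7), a change of 0.05 (SE 0.52) from day 1 to day 7. The day 1 steroid values lay below the constant of 4.35 added before taking logs, so the fold depends on that constant, and the log2 change ranged from 2.04 to 3.16 over the alternatives.

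UGT71B1 and UGT71C4 rose in both treatments. UGT71C4 was at 55.3 and 32.7 in mock and 27.3 and 37.8 in steroid samples on day 1 and at 72.8 and 76.0 in mock and 82.9 and 70.2 in steroid samples on day 7. It changed by 0.74 (SE 0.26, adjusted p 0.0411 by limma) and 1.14 (SE 0.26, adjusted p 0.00365), with no overlap between the days. Its mock call was lost with equal array weights, only those days fitted, quantile normalization, centring on the tested probe sets or no filter (limma adjusted p from 0.0501 to 0.0793). UGT71B1 was at 38.7 and 24.8 in mock and 51.9 and 30.0 in steroid samples on day 1. It was at 61.0 and 75.5 in mock and 73.3 and 76.3 in steroid samples on day 7, again without overlap. Its changes were 1.03 (adjusted p 0.0114 by limma) and 0.85 (adjusted p 0.0313). Equal array weights removed its steroid call (limma adjusted p 0.0571). Without replicate 2 of mock day 1 both mock calls were lost (0.40, limma adjusted p 0.426, for UGT71C4, and 0.75, adjusted p 0.171, for UGT71B1), as was that of UGT71C4 without either mock replicate of day 7. The steroid call of UGT71C4 was lost without replicate 1 of steroid day 1 (adjusted p 0.108), and that of UGT71B1 without replicate 2 of steroid day 1 (0.49, adjusted p 0.407) or of steroid day 7 (adjusted p 0.0640). The neighbour of UGT71C4, UGT71C5, changed by 0.07 and 0.11 and was called in neither.

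UGT76C1, which makes cytokinin N-glucosides, was at 33.7 and 53.2 in mock and 47.3 and 39.5 in steroid samples on day 1. It was highest in mock tips of day 3, at 82.8 and 55.8, with 56.0 and 43.2 in steroid tips. On day 7 it was at 19.8 and 22.6 in mock and 17.1 and 20.0 in steroid samples, below all earlier arrays. It fell by 0.88 in mock tips (SE 0.28, adjusted p 0.0267 by limma) and by 1.06 in steroid tips (SE 0.28, adjusted p 0.00937). UGT76C2, its neighbour and the other cytokinin enzyme tested, changed by -1.11 (adjusted p 0.0881 by limma) and -0.77 (adjusted p 0.235). UGT80B1 was at 51.9 and 64.0 in mock and 59.5 and 70.1 in steroid samples on day 1 and at 35.8, 36.5, 40.2 and 41.6 in the same order on day 7. It changed by -0.61 in both treatments (adjusted p 0.0439 and 0.0467 by limma). The other sterol glucosyltransferase, UGT80A2, listed on the array under the symbol SGT and so outside the rule, rose by 0.86 in both (adjusted p 0.00903 and 0.00900). The UGT76C1 mock call was lost without replicate 2 of mock day 1 (-0.58, limma adjusted p 0.292) or replicate 1 of mock day 7 (adjusted p 0.0590), and its steroid call without either steroid replicate of day 1 (adjusted p 0.142 and 0.0583). The UGT80B1 calls were lost when any 1 of 10 arrays (mock tips, adjusted p up to 0.285) or 8 arrays (steroid tips, adjusted p up to 0.320) was left out.

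UGT88A1 was called in no comparison. It was at 79.6 and 59.5 in mock and 76.0 and 70.7 in steroid samples on day 1. On day 3 it was at 92.3 and 76.6 in mock and 79.6 and 74.2 in steroid samples. On day 7 it was at 87.0 and 81.1 in mock and 75.9 and 69.3 in steroid samples, and its day 7 groups were apart with the steroid arrays lower (-0.20, SE 0.11, limma adjusted p 0.462).

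**Figure D4:**
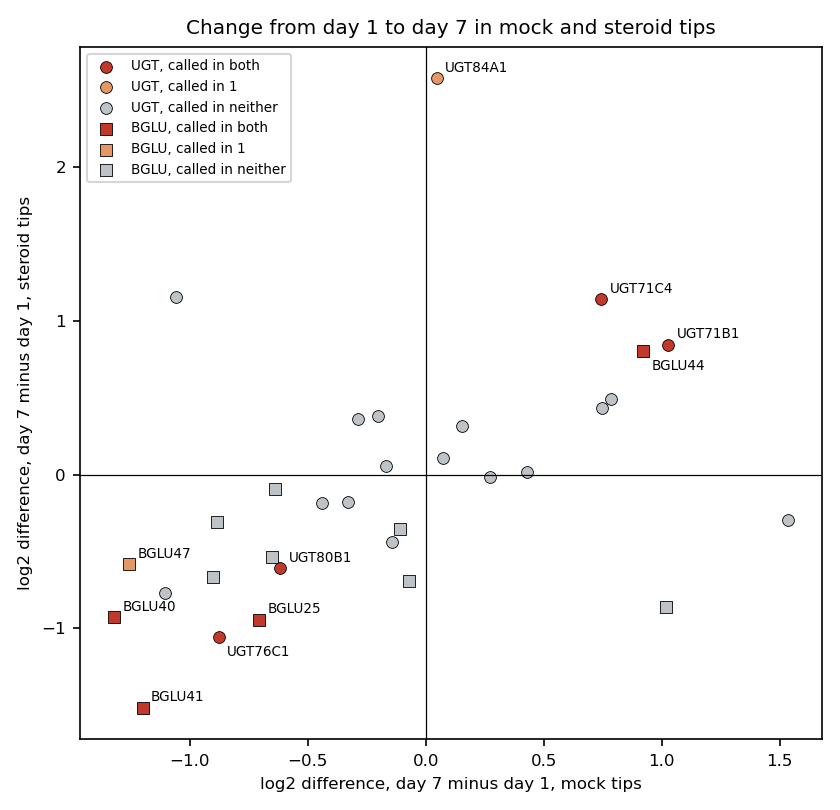
Change from day 1 to day 7 on the log2 scale in mock tips (horizontal axis) and steroid tips (vertical axis) for the 32 tested members, called members named. Most BGLU members lie in the lower left, below 0 in both, and UGT84A1 stands apart with 0.05 in mock and 2.58 in steroid tips.

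Markers of other tissue moved with these day differences. The 2 named green leaf genes, RCA and LHCB4.1, summed to 190 to 385 on the day 1 arrays and to 853 to 947 on those of day 7. The 3 named carpel genes, SPT, ALC and INO, summed to 827 to 1115 on day 1 and to 463 to 615 on day 7. Such a sum leans on its brightest probe set. Of the 3 carpel genes, 2 were called lower on day 7 in mock tips and 1 in steroid tips. The shares of all tested probe sets were 14.9% and 13.4%. The stamen gene ROXY1, 1 of 2 tested of its list, rose by 2.05 in mock and 2.70 in steroid tips (limma adjusted p 0.000909 and 7.27e-05), while the other, EMS1, was called in neither. Of the 2 tested inflorescence genes the stem cell gene CLV3 was lower on day 7 in mock tips (-1.22, limma adjusted p 0.0263), and AGL24 was called in neither. None of the 5 leaf and carpel genes was at 0 on any array, and the part of these markers in the member results was not tested. On day 7 the green leaf sum was 942 to 947 in mock and 853 to 941 in steroid samples, and the carpel sum 463 to 491 in mock and 520 to 615 in steroid samples.

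Other genes of the pathways the members belong to were named on the array in small numbers. Unlike those of the members, their calls were not followed under the alternative settings or with arrays left out. Of 41 listed genes of phenylpropanoid, lignin and flavonoid synthesis 4 were tested, and none was called for the steroid on day 7. Between days 1 and 7, 3 of those 4 rose in both treatments. Over all tested probe sets 16.0% were called higher in mock and 17.0% in steroid tips. HCT, a hydroxycinnamoyltransferase of lignin synthesis, rose by 0.64 and 0.80 on the log2 scale. ALDH2C4, which makes ferulic and sinapic acid, rose by 1.77 and 1.35, and CHIL, a chalcone isomerase-like protein, by 2.78 and 2.52. The 4 genes cannot stand for all 41, and the day 7 arrays also differed in scan and RNA quality. Of 42 listed glucosinolate genes 5 were tested. AOP3, which modifies glucosinolate side chains, was lower with the steroid on day 7, at 71.9 and 70.4 in mock and 44.3 and 44.4 in steroid samples (-0.63, SE 0.13, adjusted p 0.0158 by limma). GTR2, a glucosinolate transporter, and the glutathione transferase GSTU20 rose between days 1 and 7 in both treatments, GTR2 by 2.52 and 1.38.

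The endoplasmic reticulum body is a compartment of Brassicaceae that stores beta-glucosidases, and 5 of its 13 listed genes were tested. NAI1, the transcription factor needed to form it, was at 8.35 and 13.1 in mock and 0.673 and 3.09 in steroid samples on day 7, lower with the steroid (-1.28, SE 0.27, adjusted p 0.0206 by limma). Both NAI1 steroid values lay below the added constant of 4.35, so the size of its difference depends on that constant. PYK10, its main beta-glucosidase, listed on the array under that symbol and so outside the rule, was at 11.3 and 10.7 in mock and 8.52 and 7.18 in steroid samples (-0.33, SE 0.21, limma adjusted p 0.533).

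Of 18 genes of auxin conjugation and degradation 4 were tested. GH3.3 and GH3.17 encode enzymes that join auxin to amino acids, a route beside glucosylation. GH3.3 was higher with the steroid on day 7, at 26.8 and 22.8 in mock and 56.7 and 58.6 in steroid samples (1.09, SE 0.17, adjusted p 0.00192 by limma). GH3.17 was lower, at 67.0 and 69.7 in mock and 37.3 and 46.7 in steroid samples (-0.66, SE 0.14, adjusted p 0.0207). Of 35 listed glutathione transferases 5 were tested and none was called for the steroid on day 7. Of 13 listed salicylic acid genes 1 was tested, the methyltransferase BSMT1, which was lower on day 7 than on day 1 in mock tips (-2.57, limma adjusted p 0.00229). Of 27 other listed glycosidases 1 was tested, the beta-galactosidase BGAL16, which fell by 1.34 in mock tips (adjusted p 0.00453 by limma) and by 1.19 in steroid tips (adjusted p 0.00963). One cytokinin gene of 30 listed was tested and called in neither kind of comparison, and none of the abscisic acid or brassinosteroid genes listed was named on the array.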

How the data were processed

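The deposited value table gives each array's intensity for every probe set, untransformed, which the authors made with MAS5 per the submitters' processing notes; background settings and scaling are not given in the sources used here. No column lacked a sample. The 64 control probe sets of 22810 were left out. Each array was scaled to a median of 24.8, 4.35 (the median over arrays of the 20th percentile) was added, and log2 was taken, so changes of dim genes are understated. Probe sets above the 40th percentile on at least 2 of 12 arrays were tested with limma 3.58.1 in R 4.3.3: 6 group means, 1 array weight per day, and a mean-dependent trend, two-sided, with Benjamini-Hochberg adjustment over 16515 probe sets and a threshold of 0.05. The fit had 6 residual degrees of freedom. It was tested on simulated data. A permutation test of 2 against 2 arrays cannot go below p = 0.333. The number of arrays limits the precision.

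Symbols came from GEO's platform annotation (13513 probe sets with 1 symbol, 503 with several, 8730 with none), and all 67 members were found under the same symbol in the RefSeq gene table of TAIR10.1. Members and gene lists were chosen with earlier results of these data known. Values on every array were given for members called for the steroid, the 3 brightest of each family, those with the largest steroid effect on each day, and up to 4 called members in each direction between days; others were named by role. Alternatives covered weights, arrays fitted, scaling, the added constant, the filter, the scan and replicate blocks, and leaving out each array.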

Additional observations from a re-analysis of the deposited data

Results flagged for a closer look

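The steroid effect pointed in opposite directions on days 1 and 7 for 3 members, each time with groups of 2 samples that did not overlap. That is 3 of 32 tested members, against 7.53% of all tested probe sets, which is near the background. UGT84A1 was lower with the steroid on day 1 and higher on day 7, a difference between the days of 2.53 on the log2 scale (SE 0.74, p 0.00321, adjusted p 0.596 by limma). UGT78D3 did likewise, with a difference of 2.22 (SE 0.82, p 0.0145, adjusted p 0.725 by limma). UGT71C3 went from higher on day 1, at 0.770 and 7.15 in mock and 9.20 and 16.8 in steroid samples, to lower on day 7, a difference of -1.83 (SE 0.82, p 0.0393, adjusted p 0.815 by limma). It exceeded the filter level on only 3 arrays, both mock arrays of day 7 among them, so the filter favoured its lower steroid value on day 7. None of the 3 differences passed the adjusted threshold, and each gene had at least 1 day 1 array below 5 units of scaled signal.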

How the results depend on the processing

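The count of members called for the steroid on day 7, 1 as reported, was 0 with equal array weights, 2 when only the day 7 arrays were fitted (UGT84A1 and BGLU45), 2 with the added constant doubled (BGLU40 and UGT84A1) and 2 with a replicate block (BGLU40 and BGLU45). Leaving out 1 array gave 0 to 1. The day 1 to day 7 count in mock tips, 9 as reported, was 5 with only those days fitted and 14 with the replicate block, and 3 to 10 with 1 array left out, the lowest without replicate 2 of mock day 1. The count in steroid tips, also 9, was 2 to 9 with 1 array left out, the lowest without replicate 1 of steroid day 1. The stricter filter asked for 4 or more arrays above the 60th percentile. The cause of these shifts was not tested. The labels give same-numbered samples only a common number. Their deviations correlated at 0.123, 0.0997 and 0.0882 on days 1, 3 and 7, and what they shared beyond the number was not tested. The 8 comparisons with no member called kept 0 calls in all 180 alternative values. Of the 565 values of single members compared, 0 changed sign. They covered only changes that were called under some setting or were the largest of a family on a day. A change of sign was thus unlikely from the start, and the sign of other member values was not compared. Of the 22 family medians, which have no test, 18 changed sign under 1 or more alternatives. With the stricter filter, for example, the day 7 steroid median was -0.10 for BGLU and -0.03 for UGT members. The 4 that kept their sign were the BGLU medians for the steroid on day 1 and over the 3 days and for day 7 against day 1 in both treatments. BGLU40 kept its day 7 call under 16 of 22 alternatives, and its fall in mock tips under all 22. UGT84A1 kept its rise in steroid tips under all 21. The UGT80B1 calls were lost under 12 and 11 of 22 and the mock BGLU41 call under 15 of 21. Scan could not be fitted as a block for comparisons that involve day 7. Low signal limited 35 members, which were not tested.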

Other observations

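Replicate numbers ran with signal for some members. In all 4 groups of days 1 and 3, replicate 2 was above replicate 1 for 7 of 32 tested members (BGLU33, BGLU44, BGLU45, BGLU46, UGT71C3, UGT74D1 and UGT84A3) and for 8.11% of all tested probe sets. The opposite held for 3 members (BGLU25, UGT72E2 and UGT88A1) and for 14.4% of all. In all 4 of these groups the GAPDH 3′ to 5′ ratio was also higher for replicate 2. For replicates 1 and 2 of day 1 it was 4.16 and 11.2 in mock and 7.93 and 8.47 in steroid samples. On day 3 it was 8.36 and 12.2 in mock and 6.60 and 15.8 in steroid samples. The ubiquitin ratio went the other way in all 4 groups. The part of RNA quality in the replicate pattern was not tested. For the neighbouring pair BGLU45 and BGLU46, replicates 1 and 2 of the steroid group read 22.9 and 79.4 and 32.8 and 75.7 on day 1, and 11.8 and 75.6 and 35.4 and 71.9 on day 3.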
